A study of Homo sapiens with 6 samples.

Results

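The SNORD113 and SNORD114 genes lie side by side on the plus strand of chromosome 14, and the junctions described here are all rows of the circRNA table whose gene name begins with SNORD113 or SNORD114. There were 50 such back-splice junctions among the 7746 circRNAs of the table, under 14 gene names. A back-splice junction is the read-through from the downstream end of a circular RNA (circRNA) back to its upstream start, so each row is a pair of a start and an end, and its value is the number of reads that cross it. The study compared PANC-1-GR cells with PANC-1 cells to find circRNAs that differ with Gemcitabine resistance, with total RNA of both lines sequenced in 3 libraries each. The PANC-1 line comes from a human pancreatic ductal carcinoma. PANC-1-GR was derived from it by culture in Gemcitabine, a nucleoside analogue used as chemotherapy, over 40 weeks, from 0.1 µg/ml up to 200 µg/ml, and was then kept resistant with 10 µg/ml given periodically. Both lines share their origin and basal medium, and PANC-1 is labelled as the control. The comparison therefore rests on 1 derived line and 1 parental line. Separate cultures are not stated for the libraries, and a p-value here sets a difference against a spread that may be technical. The extraction text in the labels speaks of tumour tissue and plasma, whereas every sample is labelled as a pancreatic cancer cell line.

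The SNORD113 and SNORD114 genes encode small nucleolar RNAs (snoRNAs) of the box C/D type, which in general guide 2′-O-methylation of other RNAs, although the targets of this family are not established. They sit in the imprinted DLK1-DIO3 region, where only the maternal chromosome expresses the non-coding genes MEG3 and MEG8 and the snoRNA and microRNA clusters. Such snoRNAs are cut out of the introns of a long host transcript, here MEG8, a long non-coding RNA, so a junction named for a snoRNA can run across exons of the host.

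The first 3 sequences are the snoRNAs named most often in the table's rows, from the GENCODE 29 transcripts on GRCh38 and shown to tell the snoRNAs apart from the exons that the junctions join. Capitals mark each TGATGA (the C box core) and each CTGA (the D box core), searched on the strand of the RNA, overlapping matches included. A TGATGA followed by a CTGA was present in 30 of the 39 family sequences, which are 69 to 78 bases long. The same pattern was present in 60% of the 85 other GENCODE snoRNAs in that length range and in 43.9% of all 545. Of the 39 family genes, 37 overlapped no exon of MEG8.
SNORD113-4: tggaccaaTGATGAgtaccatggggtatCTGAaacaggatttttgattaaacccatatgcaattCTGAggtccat
SNORD113-5: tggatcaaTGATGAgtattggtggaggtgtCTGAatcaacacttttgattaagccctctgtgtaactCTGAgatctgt
SNORD114-1: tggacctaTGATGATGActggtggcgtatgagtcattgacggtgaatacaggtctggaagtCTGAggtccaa

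The junctions are given on hg19, the build named in the submitters' processing notes, and GENCODE 29 is on GRCh38, so no coordinate was carried from one to the other and only distances were compared. The 21 starts and 17 ends of the cluster were laid, as a rigid pattern, over the 81 exon starts and 83 exon ends of the 25 MEG8 transcripts. In the best placement 33 of the 38 borders met an exon border of the same kind, 17 of the starts and 16 of the ends. The next best placement met 3. Both borders met an exon border for 44 of the 50 junctions, which held 550 of the 583 cluster reads (94.3%). Of the borders without an exon border, the start at 101396784 had the most reads, with 21, and the other 4 had 2 to 8.

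The next 5 sequences are the MEG8 exons that stand at the most-used borders in that placement, from GENCODE 29. They are shown because joining the last bases of an end exon to the first bases of a start exon gives the junction expected under that placement. No read sequence was inspected. No annotated MEG8 transcript held both a start and an end shown here. Capitals mark the 10 bases at the joined border, at the 5′ side of the exons at starts and at the 3′ side of the exons at ends.
MEG8-220 exon 9, at start 101403740: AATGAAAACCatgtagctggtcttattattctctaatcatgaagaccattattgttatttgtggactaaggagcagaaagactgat
MEG8-220 exon 8, at start 101402109: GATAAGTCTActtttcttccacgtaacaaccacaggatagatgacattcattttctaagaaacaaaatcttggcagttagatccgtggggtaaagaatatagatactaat
MEG8-201 exon 2, at end 101415933: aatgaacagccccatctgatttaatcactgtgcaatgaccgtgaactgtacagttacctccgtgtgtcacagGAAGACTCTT
MEG8-221 exon 15, at end 101455127: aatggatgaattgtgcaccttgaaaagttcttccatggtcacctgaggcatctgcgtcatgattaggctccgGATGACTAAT
MEG8-221 exon 21, at end 101464448: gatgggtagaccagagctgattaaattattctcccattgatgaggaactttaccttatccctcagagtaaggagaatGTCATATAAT

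For 8 starts of the cluster, an end of another cluster junction lay 77 to 148 bp downstream. All 8 of these stretches were MEG8 exons of exactly that length in the placement. Their borders were among those already matched above, so this is not separate support for the placement. The table also predicts a length for each row, which is not a measurement of the circle. It can be set beside exon sums, but this does not check the cluster's own rows. The table listed 2 junctions inside the interval under SNHG24, which RefSeq gives as a synonym of MEG8, and treated them as exonic. The junction 101434985-101452077 spans 17093 bp with a predicted length of 837 bases, and the exons over that stretch add up to 837 bases in 3 MEG8 transcripts and to 955 in a further one. The junction 101448841-101452077 spans 3237 bp with a predicted length of 337 bases, again the exon sum. Both start where cluster junctions start. The cluster's own rows were instead all classed as sense overlapping, and their predicted length equalled the full genomic span in 50 of 50, as in 100% of the other rows of that class and 5.63% of exonic rows. In 21 junctions, at least 1 annotated MEG8 transcript held both borders. The exons between them added up to 163 to 2185 bases over spans of 1554 to 43706 bp, or 1.79% to 15.0% of the span. The most-read of these 21 had 24 reads over all libraries. The most-read junctions of the cluster, 101403740-101415933 (111 reads) and 101402109-101415933 (84 reads), were not among them. Whether introns were kept in circles of the cluster cannot be read from junction reads.

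The gene name of a row followed its span and not a snoRNA at its border. Under the same placement, each of the 24 rows whose span held SNORD114-1 was named SNORD114-1, and each of the other 26 rows was named for the first snoRNA gene within it. A span held between 1 and 36 snoRNA genes of the family. In the file's own coordinates, of the 36 rows that start at or before the last start of a SNORD114-1 row, the 12 named for a SNORD113 gene end before 101417831 and the 24 named SNORD114-1 end at or after it. The same start therefore carries several names. The start 101403740 belongs to 4 rows named SNORD113-5 and to 6 named SNORD114-1. By name, the SNORD114-1 rows held 99 reads in PANC-1-GR and 115 in PANC-1, the 4 SNORD113-5 rows 55 reads in PANC-1-GR and 70 in PANC-1, and the 4 SNORD113-4 rows 56 reads in PANC-1-GR and 53 in PANC-1. The other 11 names had 2 to 31 reads each over all libraries.

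The libraries held 13689, 9222 and 10889 junction reads in PANC-1-GR and 11964, 11785 and 9429 in PANC-1, and no 2 libraries were identical. Depth was low for single junctions: the median circRNA of the table had 4 reads over all 6 libraries, as did the median junction of the cluster. Of the markers of pancreatic duct epithelium, 1 of 9 genes (KRT19) had a circRNA, with 1 read in PANC-1-GR and 2 in PANC-1, and none was listed for markers of endothelium, blood cells, fibroblasts or the acinar and endocrine pancreas. A gene without a circRNA may still be expressed, so junction reads do not check the labelled cell type.

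The 50 junctions together had 122, 63 and 88 reads in the PANC-1-GR libraries and 120, 101 and 89 reads in the PANC-1 libraries. Per 10000 junction reads of the library, the cluster stood at 89.1, 68.3 and 80.8 in PANC-1-GR and at 100.3, 85.7 and 94.4 in PANC-1. The highest PANC-1-GR library lay above the lowest PANC-1 library, so the lines overlapped. The means were 79.4 ± 10.5 in PANC-1-GR and 93.5 ± 7.34 in PANC-1 (SD, n = 3 each). The ratio of pooled reads was 0.864, with an exact (Clopper-Pearson) 95% interval of 0.732 to 1.02 that covers counting error only. Fewer cells that make a circle and fewer circles per cell cannot be told apart in such bulk libraries. The cluster made up 0.870% of all junction reads. It had 5.46% of the 916 sense overlapping rows and 11.4% of the reads of that class. No other host gene of the table had more than 35 junctions, and 4 others had more reads than the cluster.

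Spans ran from 1554 to 67665 bp, with a median of 29435.5 bp, against 13355.5 bp for the other sense overlapping rows and 9448.5 bp over the whole table. Weighted by reads, the median span of the cluster was 19332 bp, so the short circles held more of the reads. Spans over 40 kb were found in 14 junctions, while 11.1% of all circRNAs of the table exceed that size. These 14 held 32, 13 and 28 reads in the PANC-1-GR libraries and 38, 22 and 21 in the PANC-1 libraries. Their share of the cluster reads was 26.2 ± 5.59% in PANC-1-GR and 25.7 ± 5.26% in PANC-1 (SD, n = 3 each), a difference within the spread of the libraries.

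**Figure D1:**
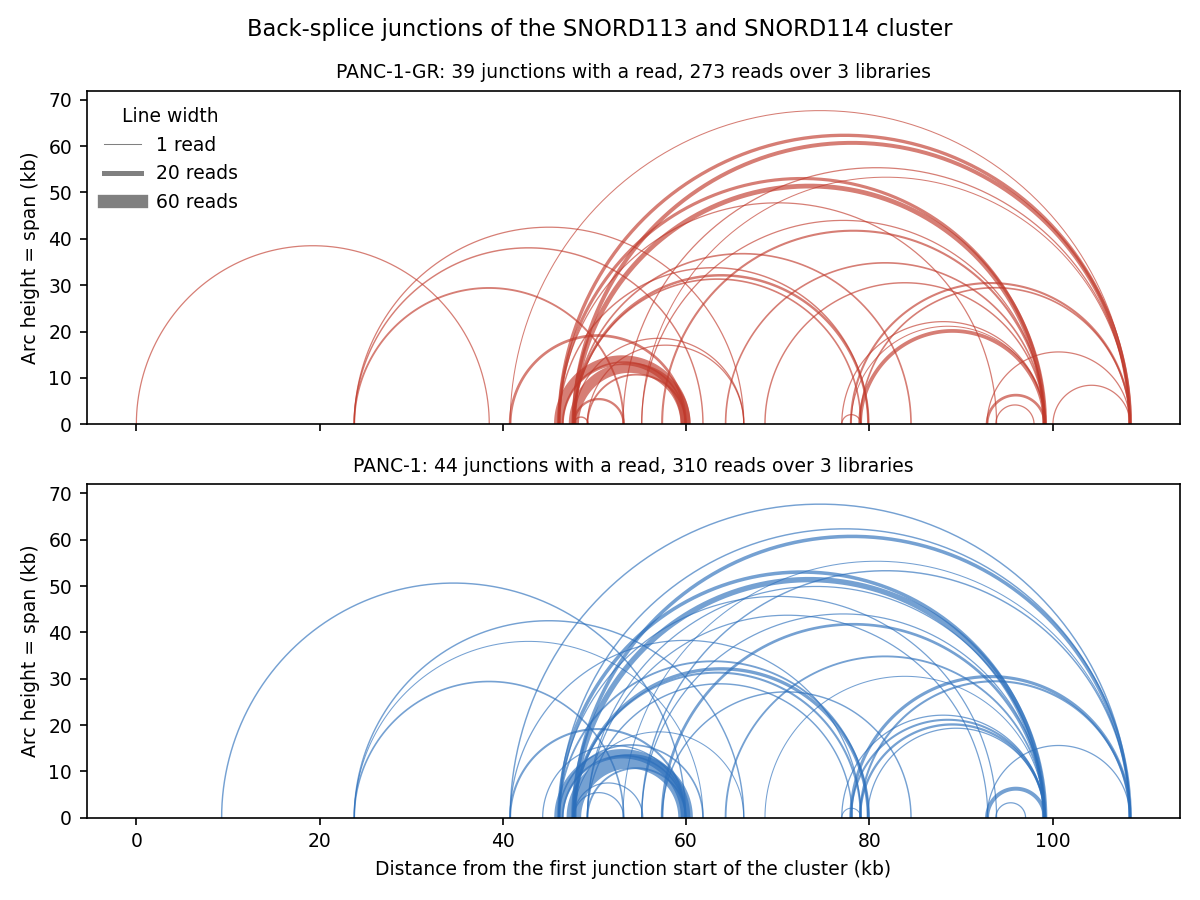
Each arc is 1 junction of the cluster, drawn between its start and its end; the x axis gives the distance in kb from the first start, the height equals the span in kb and the line width grows with the reads summed over 3 libraries, with PANC-1-GR above and PANC-1 below. In both lines the arcs gather at the starts 46.1 and 47.8 kb and at the ends 59.9, 99.1 and 108.5 kb from the first start, with 273 reads in PANC-1-GR and 310 in PANC-1.

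Borders were reused throughout the cluster. Of the 21 starts, 12 occurred in more than 1 junction, and of the 17 ends, 9 did. Both borders were shared with another cluster junction in 34 of the 50 (68.0%), which held 90.9% of the reads, and neither was shared in 1. The starts and ends could be paired in 247 forward combinations at least as long as the shortest junction seen, of which 50 were listed. Among the 56 other host genes with at least 10 junctions, the share with both borders reused was 36.4% at the median and ranged from 0% to 80.0%. For 5 of these genes it was at or above that of the cluster. PTK2, which encodes focal adhesion kinase, came closest in number, with 35 junctions and 68.6% reused. Reuse was therefore above the median of many-junction genes and within their range. A locus with more listed junctions also has more chances to repeat a border.

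**Figure D2:**
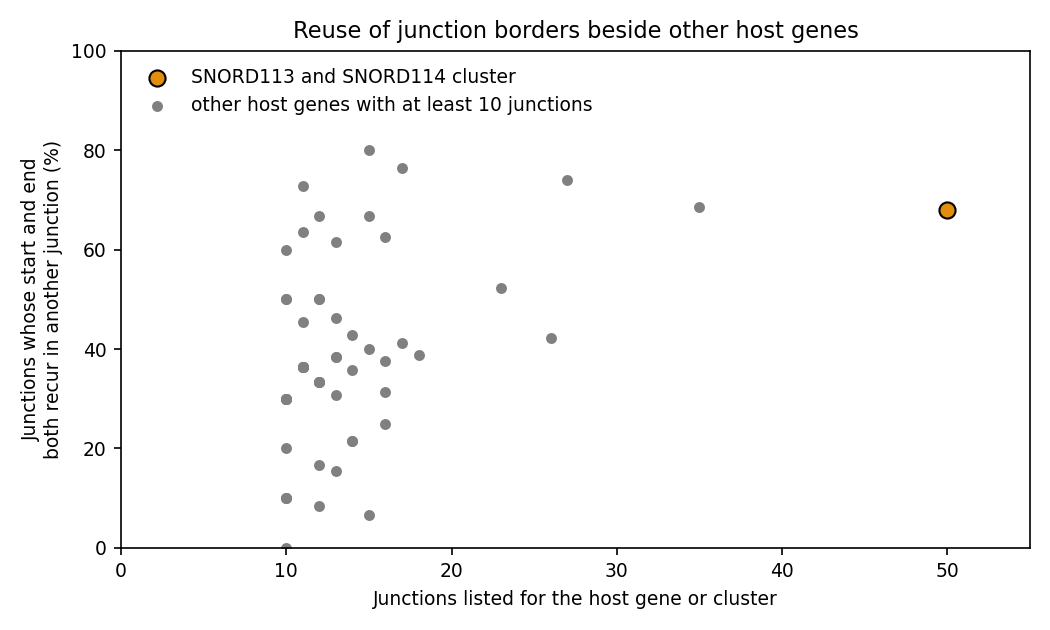
The y axis gives the percentage of listed junctions whose start and end both recur in another junction of the same host gene, and the x axis the number of junctions listed; the orange point is the cluster and the grey points are the 56 other host genes with at least 10 junctions. The cluster lies farthest right, at 50 junctions and 68.0%, and 5 other genes lie at or above that percentage.

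At the upstream side, 2 starts dominated. The start 101403740 took part in 10 junctions, with 49, 31 and 27 reads in PANC-1-GR and 44, 41 and 39 in PANC-1. The start 101402109 took part in 6, with 27, 10 and 34 reads in PANC-1-GR and 29, 20 and 19 in PANC-1. Together they held 370 of the 583 reads (63.5%). The start 101403740 had 40.0 ± 9.26% of the cluster reads in PANC-1-GR and 40.4 ± 3.58% in PANC-1. The start 101402109 had 25.5 ± 11.8% in PANC-1-GR and 21.8 ± 2.21% in PANC-1 (SD, n = 3 each for both). In each case the 3 libraries of PANC-1-GR enclosed those of PANC-1. The start order changed in 1 library: PANC-1-GR replicate 3 had more reads at 101402109 (34) than at 101403740 (27), whereas the other 5 libraries had more at 101403740. The next start, 101434985, had 18 reads in PANC-1-GR and 13 in PANC-1.

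At the downstream side, 3 ends held 477 reads (81.8%) in 28 junctions. The end 101415933 closed 7 junctions with 45, 23 and 38 reads in PANC-1-GR and 45, 43 and 39 in PANC-1. Its share was 38.9 ± 3.75% in PANC-1-GR and 41.3 ± 3.35% in PANC-1 (SD, n = 3 each). The end 101455127 closed 12 junctions, the most of any border, with 30, 22 and 19 reads in PANC-1-GR and 40, 26 and 20 in PANC-1. These shares did not separate the lines, at 27.0 ± 6.99% in PANC-1-GR and 27.2 ± 5.57% in PANC-1 (SD, n = 3 each). The end 101464448 closed 9 junctions with 23, 2 and 20 reads in PANC-1-GR and 18, 11 and 13 in PANC-1. The lowest share at this end, 3.17% in PANC-1-GR replicate 2 (exact 95% interval 0.387 to 11.0%), rests on 2 reads. The share was 18.9% (12.3 to 26.9%) in replicate 1 and 22.7% (14.5 to 32.9%) in replicate 3 of the same line. In the PANC-1 libraries it was 15.0% (9.14 to 22.7%), 10.9% (5.56 to 18.7%) and 14.6% (8.01 to 23.7%). The interval of PANC-1-GR replicate 2 overlapped each of these PANC-1 intervals. It lay below the intervals of replicates 1 and 3 of its own line, so the PANC-1-GR libraries differed at this end by more than counting error.

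**Figure D3:**
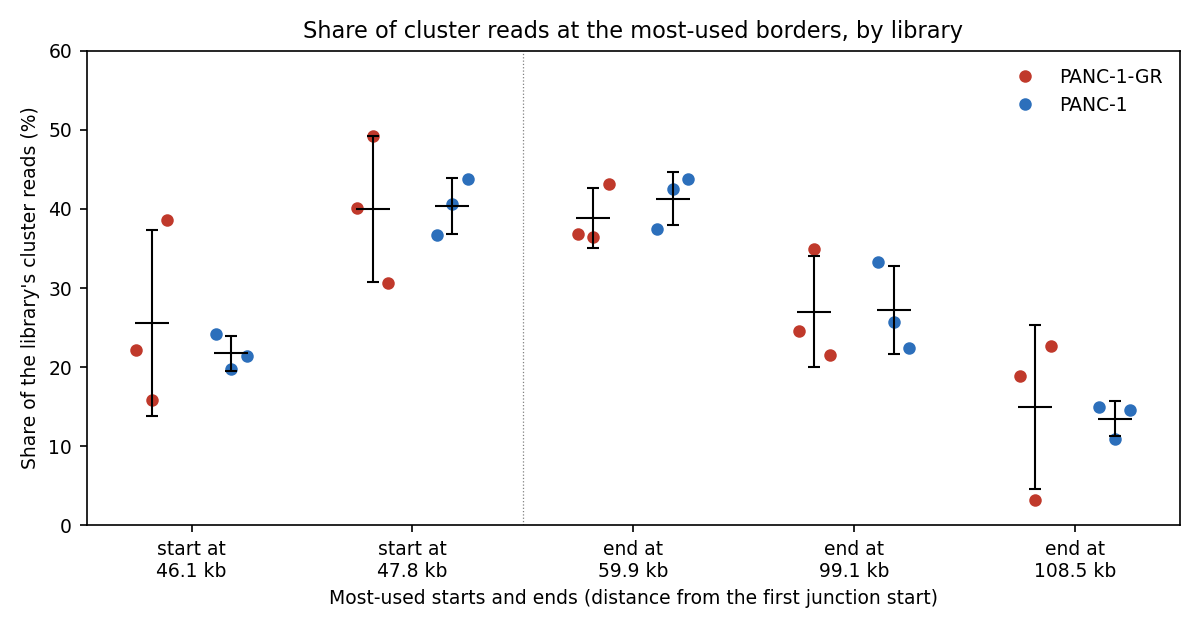
The y axis gives the percentage of a library's cluster reads that lie at a border; points are libraries, bars are the mean ± SD of 3 libraries, PANC-1-GR is red and PANC-1 blue. The starts 46.1 and 47.8 kb and the ends 59.9, 99.1 and 108.5 kb from the first start are 101402109, 101403740, 101415933, 101455127 and 101464448, and the lines overlap at each of the 5.

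The 6 junctions formed by the 2 main starts and 3 main ends were all listed, and they held 303 reads (52.0%). Their summed share was 52.8 ± 5.82% in PANC-1-GR and 51.0 ± 1.66% in PANC-1 (SD, n = 3 each). Both starts joined the nearest of the 3 ends most often. From 101403740, the ends 101415933, 101455127 and 101464448 took 45, 19 and 15 reads in PANC-1-GR and 66, 22 and 13 reads in PANC-1. From 101402109, they took 43, 11 and 12 reads in PANC-1-GR and 41, 13 and 3 reads in PANC-1.

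The databases listed few of these circles. Of the 50 junctions, 46 (92.0%) had no database source in the table, compared with 32.3% of the rows outside the cluster and 74.7% of the other sense overlapping rows. The 4 with a source were among the most-read. Those under a circBase ID held 132 reads: 101403740-101415933 (hsa_circ_0003265) and 101434985-101455127 (hsa_circ_0004489). Those credited to Guojunjie2014, 101402109-101415933 and 101402109-101455127, held 108 reads, 54 in PANC-1-GR and 54 in PANC-1. Unlisted junctions made up 58.1 ± 3.01% of the cluster reads in PANC-1-GR and 58.9 ± 3.16% in PANC-1 (SD, n = 3 each).

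The most-read junction was 101403740-101415933, named SNORD113-5, with 17, 13 and 15 reads in PANC-1-GR and 19, 25 and 22 reads in PANC-1. It spans 12194 bp. Its level was 13.4 ± 0.891 per 10000 junction reads in PANC-1-GR and 20.1 ± 3.84 in PANC-1 (SD, n = 3 each). All 3 PANC-1-GR libraries lay below all 3 PANC-1 libraries in level. The log2 fold change was -0.59 (SE 0.32), with an unadjusted p of 0.0650 in edgeR's quasi-likelihood test and an adjusted p of 0.978 (Benjamini-Hochberg over 969 circRNAs), so it did not pass either threshold. The unadjusted edgeR p was 0.0338 when 10 reads in 3 libraries were required and 0.0395 without PANC-1 replicate 1, and the fold change stayed under 2 in both. The two-sided exact permutation test gave p = 0.1, the smallest that 3 against 3 libraries allow. Within the cluster reads its share was 17.2 ± 3.35% in PANC-1-GR and 21.8 ± 5.14% in PANC-1, a difference smaller than the SD in PANC-1.

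The second junction, 101402109-101415933, named SNORD113-4, had 20, 7 and 16 reads in PANC-1-GR and 19, 11 and 11 in PANC-1. It shares the end of the first and starts 1 MEG8 exon upstream in the placement. Its levels were 12.3 ± 4.08 in PANC-1-GR and 12.3 ± 3.32 in PANC-1 (SD, n = 3 each). The log2 fold change was 0.02 (SE 0.36), and the ratio of pooled reads was 1.03 with a counting interval of 0.655 to 1.62.

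The long circles from the same starts were named SNORD114-1. The junction 101403740-101455127, of 51388 bp, had 12, 6 and 1 reads in PANC-1-GR and 11, 5 and 6 in PANC-1. The junction 101403740-101464448, of 60709 bp, had 7, 1 and 7 reads in PANC-1-GR and 5, 3 and 5 in PANC-1. The junction 101402109-101455127, of 53019 bp, had 4, 3 and 4 reads in PANC-1-GR and 4, 6 and 3 in PANC-1. These 3 had log2 fold changes of -0.26 (SE 0.50), 0.15 (SE 0.61) and -0.27 (SE 0.66), each smaller than its SE, and their lines overlapped. For 101403740-101455127 the log2 fold change was -0.93 without PANC-1-GR replicate 1 and 0.21 without PANC-1-GR replicate 3. The junction 101403740-101435882 had 6, 0 and 2 reads in PANC-1-GR and 6, 4 and 2 in PANC-1, with a log2 fold change of -0.62 (SE 0.73), which ran from -1.78 without PANC-1-GR replicate 1 to -0.16 without PANC-1-GR replicate 2. The junction 101413371-101455127 had 1, 2 and 3 reads in PANC-1-GR and 4, 4 and 1 in PANC-1, with a log2 fold change of -0.58 (SE 0.86). Neither differed beyond its error.

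**Figure D4:**
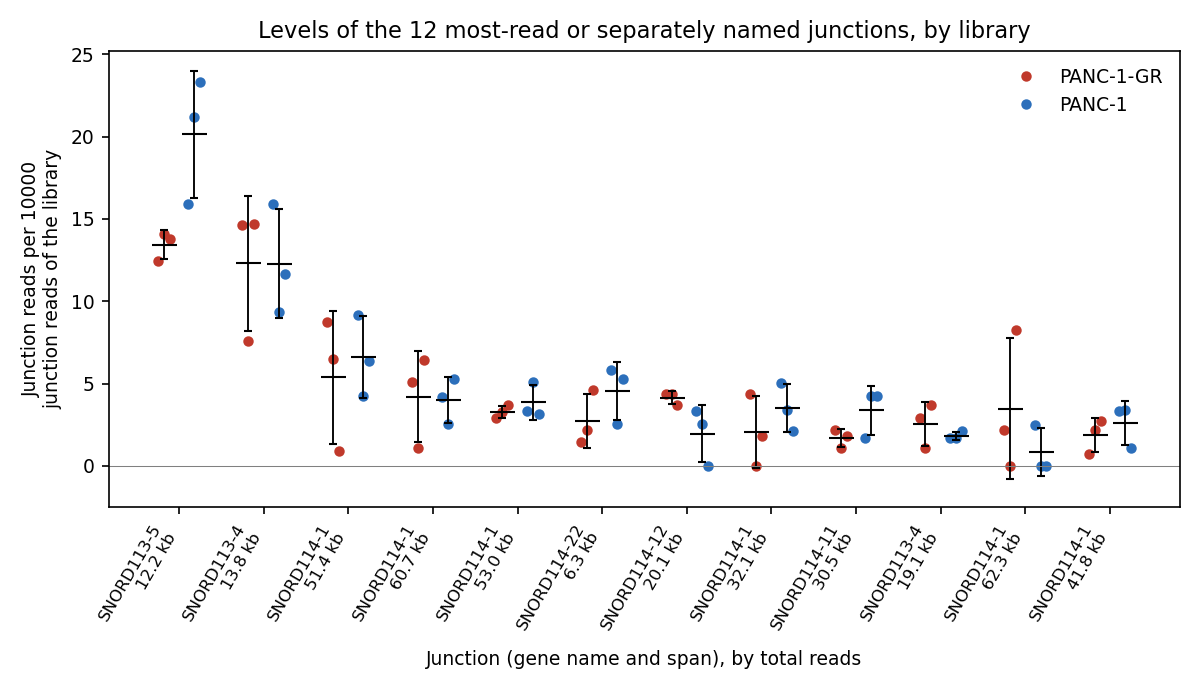
The y axis gives the level (reads per 10000 of the library) for the 12 junctions described one by one, ordered by total reads and labelled by gene name and span; points are libraries, bars are the mean ± SD of 3 libraries, PANC-1-GR is red and PANC-1 blue. The lines separate at the SNORD113-5 junction, with 13.4 ± 0.891 in PANC-1-GR and 20.1 ± 3.84 in PANC-1, and at the SNORD114-12 junction, with 4.13 ± 0.397 in PANC-1-GR and 1.96 ± 1.75 in PANC-1. At SNORD114-12 the nearest libraries of the lines had 4 reads each and differ only by their library totals. The lines did not overlap in 10.8% of all circRNAs tested.

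The best-read junctions that start downstream of SNORD114-1 closed at the ends 101455127 and 101464448. The junction 101448841-101455127, named SNORD114-22, had 2, 2 and 5 reads in PANC-1-GR and 7, 3 and 5 in PANC-1, with a log2 fold change of -0.75 (SE 0.67). The junction 101434985-101455127, named SNORD114-12, had 6, 4 and 4 reads in PANC-1-GR and 4, 3 and 0 in PANC-1. Per 10000 junction reads its 3 PANC-1-GR libraries lay above its 3 PANC-1 libraries. The nearest of these, PANC-1-GR replicate 3 and PANC-1 replicate 1, had 4 reads each. Their order, 3.67 against 3.34, comes from the library totals alone. The log2 fold change was 0.93 (SE 0.72), with an unadjusted edgeR p of 0.199 and a two-sided exact permutation p of 0.1. The junction 101433976-101464448, named SNORD114-11, had 3, 1 and 2 reads in PANC-1-GR and 2, 5 and 4 in PANC-1, with a log2 fold change of -0.88 (SE 0.81). At the upstream side, 101396784-101415933, named SNORD113-4, had 4, 1 and 4 reads in PANC-1-GR and 2, 2 and 2 in PANC-1 and was not tested, because it lacked 3 reads in 3 libraries. Its start is the best-read one with no MEG8 exon border in the placement.

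The study took 1 junction of the cluster further, 101402109-101464448, which joins the second start to the third end. By qRT-PCR, the study reported it higher in PANC-1-GR cells and in plasma of patients who did not respond to Gemcitabine. It also reported that silencing the circle made PANC-1-GR cells more sensitive to Gemcitabine. Overexpressing it was reported to make PANC-1 and MIA PACA-2 cells more resistant and to lower a microRNA predicted to bind it. The counts described here cover none of those assays. In the libraries, the junction had 3, 0 and 9 reads in PANC-1-GR and 3, 0 and 0 in PANC-1. A count of 0 allows an expected count of up to about 3 reads (one-sided 95% limit). Of the junction's 12 reads in PANC-1-GR, 9 came from replicate 3, and the lines overlapped. Its log2 fold change was 1.84 (SE 0.94), with an unadjusted p of 0.0496 in edgeR's quasi-likelihood test and an adjusted p of 0.978 (Benjamini-Hochberg). The exact permutation test of its level gave p = 0.7. The study chose it on these libraries, so its p is not independent evidence. Without PANC-1-GR replicate 3 the log2 fold change was 0.45, without PANC-1 replicate 2 it was 1.28 and without PANC-1 replicate 3 it was 1.38, and the call was lost each time. It was also lost with the replicate number as a block, at a log2 fold change of 1.66. The call held without PANC-1-GR replicate 1, at 2.13, and without PANC-1-GR replicate 2, at 2.31. It also held without PANC-1 replicate 1, where the circle has no PANC-1 read left. The library with the 9 reads was also the one in which the start 101402109 exceeded 101403740. Its other border, 101464448, is shared with 101403740-101464448, which had 7, 1 and 7 reads in PANC-1-GR and 5, 3 and 5 in PANC-1. Leaving the circle out, the cluster stood at 86.9, 68.3 and 72.6 per 10000 junction reads in PANC-1-GR and at 97.8, 85.7 and 94.4 in PANC-1, which still overlapped. The ratio of pooled reads was then 0.835, with a counting interval of 0.705 to 0.987 that leaves out the spread between libraries. With the circle included it was 0.864, with an interval of 0.732 to 1.02. The circle was chosen on these libraries as higher in PANC-1-GR, so leaving it out had to lower the ratio. The interval below 1 is therefore no evidence that the other junctions differ.

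Of the 50 junctions, 11 had the 3 reads in 3 libraries that the test required, and 39 did not. With a call defined as a fold change of 2 or more together with an unadjusted p of 0.05 or less, edgeR's quasi-likelihood test called 1 of the 11, the junction just described, higher in PANC-1-GR, against 4.23% of all 969 circRNAs tested (2.79% higher and 1.44% lower). With the replicate block, DESeq2 or limma-voom, 0 of the 11 were called. None of the other 10 reached an unadjusted p of 0.05 in that test, whichever the direction. Among the 11, the fold change lay above 0 in 4 and below 0 in 7, with a median log2 fold change of -0.27, beside -0.04 over all circRNAs tested. The lines did not overlap in 2 of the 11, beside 10.8% of all circRNAs tested. After Benjamini-Hochberg adjustment of the edgeR p-values over all 969 no circRNA was below 0.05. The unadjusted p was at most 0.05 for 49 of them, and the adjusted count was also 0 with edgeR's exact test, DESeq2 and limma-voom, where 43, 14 and 47 had an unadjusted p of at most 0.05.

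**Figure D5:**
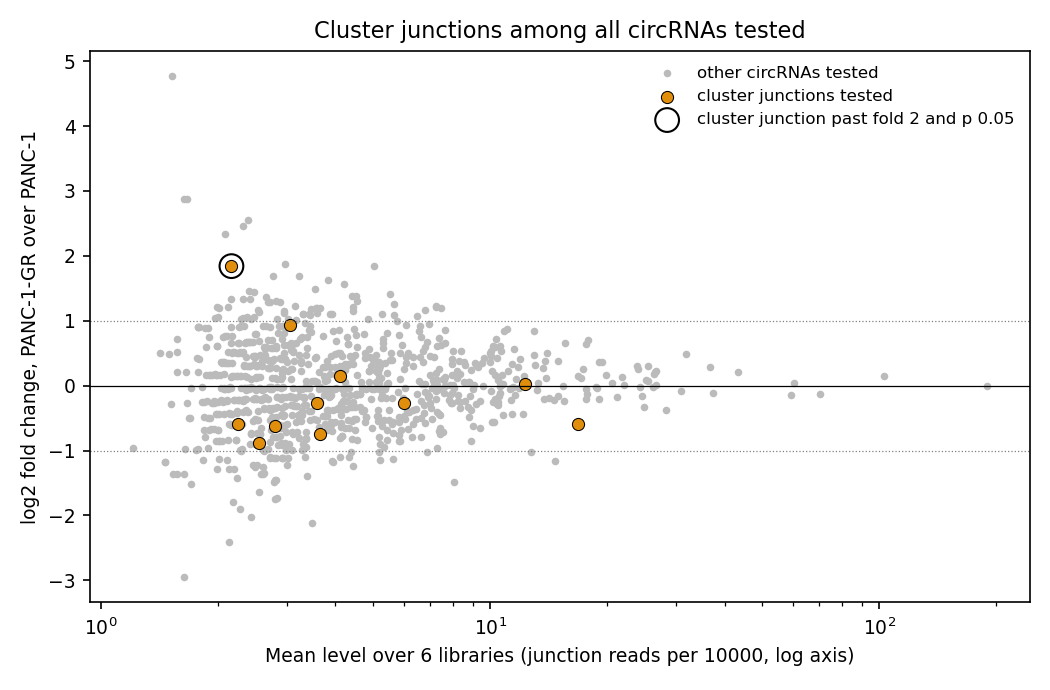
The y axis gives the log2 fold change of PANC-1-GR over PANC-1 and the x axis, on a log scale, the mean level in junction reads per 10000; grey points are other circRNAs tested, orange points the 11 cluster junctions tested, and dotted lines mark a fold change of 2. The ringed point is 101402109-101464448 at 1.84, and the other 10 lie between -0.88 and 0.93.

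The 39 junctions without a test held 183 reads, 85 in PANC-1-GR and 98 in PANC-1, with 2 to 15 reads each. The cluster had 28 junctions with 2 to 4 reads (56.0%, beside 56.2% of the whole table). Reads were found in all 6 libraries for 10 junctions and in a single library for 11. Of those 11, 4 were in PANC-1-GR replicate 1, the deepest library, 1 in PANC-1 replicate 1, 2 in PANC-1 replicate 2 and 4 in PANC-1 replicate 3. Reads in PANC-1-GR alone occurred for 6 junctions, 15 reads in all, and reads in PANC-1 alone for 11, 27 reads in all. None of these had more than 4 reads, so absence from a line was not detectable at this depth. A library contained 33, 21 and 21 of the junctions in PANC-1-GR and 30, 30 and 28 in PANC-1.

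Library pairs between the lines and within a line overlapped over similar ranges in the composition of the cluster. The overlap of 2 libraries, the sum over junctions of the smaller of the 2 shares, was 58.8% to 75.2% in the 9 pairs of a PANC-1-GR with a PANC-1 library and 52.9% to 70.0% in the 6 pairs within a line. The effective number of junctions, the inverse of the summed squared shares, was 13.6 in PANC-1-GR and 12.2 in PANC-1, on reads pooled over a line.

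Rows of the imprinted region under other names held few reads. They were 3 circRNAs from 2 of 10 listed genes of the region, MEG3 and the host gene MEG8, and the SNHG24 rows described above, and none was tested. MEG3, a maternally expressed long non-coding RNA, had hsa_circ_0005270 with 4, 2 and 2 reads in PANC-1-GR and 2, 1 and 0 in PANC-1, and the junction 101296046-101298978 with 0, 2 and 0 in PANC-1-GR and none in PANC-1. The row named MEG8, 101361036-101365422, had no read in PANC-1-GR and 0, 2 and 0 in PANC-1. The SNHG24 junction 101434985-101452077 had 2, 0 and 0 reads in PANC-1-GR and 0, 1 and 0 in PANC-1, and 101448841-101452077 had 3, 1 and 1 in PANC-1-GR and 2, 0 and 2 in PANC-1. No minus-strand junction lay inside the interval.

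A list of genes known as imprinted elsewhere gave 17 circRNAs from 10 of 41 genes. Whether each is imprinted in these cells was not examined. Of the 17, 2 were tested and 0 called by edgeR, and neither had an unadjusted p under 0.05. UBE3A, a ubiquitin ligase gene, had hsa_circ_0000586 with 27, 19 and 18 reads in PANC-1-GR and 19, 18 and 15 in PANC-1 and a log2 fold change of 0.25 (SE 0.31). ZDBF2, a zinc finger gene, had hsa_circ_0002141 with 2, 2 and 4 reads in PANC-1-GR and 4, 2 and 3 in PANC-1 and a log2 fold change of -0.20 (SE 0.79). IGF2R, the receptor that clears IGF2, had a circle with 3, 1 and 1 reads in PANC-1-GR and 2, 3 and 1 in PANC-1. Factors of box C/D snoRNA assembly and RNA turnover gave 21 circRNAs from 8 of 18 genes, with 1 tested and 0 called. That one was hsa_circ_0003298 of XRN2, a nuclear exonuclease, with 1, 3 and 6 reads in PANC-1-GR and 4, 1 and 0 in PANC-1, a log2 fold change of 0.93 (SE 0.88) and an unadjusted edgeR p of 0.290.

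Across the 6 libraries, the summed level of the cluster was most like that of KANSL1, PHKB and TNPO3 among 227 host genes with at least 60 reads, with Pearson's r of 0.914, 0.891 and 0.855. These are descriptions over 6 points that share their library totals, picked as the highest of 227 correlations. They show no relation between the loci. The levels per 10000 junction reads were 11.0, 4.34 and 5.51 in PANC-1-GR and 12.5, 7.64 and 13.8 in PANC-1 for KANSL1, a chromatin regulator. For PHKB, a subunit of phosphorylase kinase, they were 10.2, 7.59 and 10.1 in PANC-1-GR and 13.4, 8.49 and 12.7 in PANC-1. For TNPO3, a nuclear import receptor, they were 13.1, 6.51 and 6.43 in PANC-1-GR and 18.4, 17.0 and 19.1 in PANC-1.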

How the data were processed

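Total RNA of 3 PANC-1-GR and 3 PANC-1 libraries was sequenced. The authors deposited 1 table of back-splice junction read counts per library, which were used as deposited. CASAVA 1.8, BWA and hg19 appear in the submitters' processing notes. The junction caller was not given in the sources used here, nor were read length and mapped depth. A further 6 per-sample columns of log-scale CPM values and the authors' fold changes and p-values were not used. One emptied line was not analysed here (1 in all). Each listed circRNA had at least 2 reads in some library.

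Members were all rows named for SNORD113 or SNORD114. The members, gene lists and tests were chosen with earlier results of these data known. Rows with 3 or more reads in 3 or more libraries were tested with edgeR 4.0.16 (quasi-likelihood, TMM factors, prior count 0.125, R 4.3.3), with Benjamini-Hochberg adjustment. Calls required a 2-fold change or more together with an unadjusted p of 0.05 or less, as in the study's results, whereas its methods name a smaller fold. Levels are reads per 10000 junction reads of a library. Intervals are exact at 95% and cover counting error only. Described one by one were the 10 members with the most reads (ties kept), the junction the study took further, called members, and members with a circBase ID and at least 10 reads. Up to 4 circRNAs were named of the region's other genes and up to 3 of each further list. The gene list of the region held 10 genes, imprinted genes elsewhere 41 and snoRNA factors 18. Exons and snoRNAs came from GENCODE 29.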

Additional observations from a re-analysis of the deposited data

How the results depend on the processing

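The summed ratio (0.804 to 0.914 over its alternatives and with single libraries left out) and the shares at the most-used borders and junction moved by less than counting error or the spread of libraries. The share with both borders reused was 79.5% among the 39 junctions with at least 3 reads, against 68.0% of all. The single call held less well. The number of called junctions was 1 with RLE factors, library totals, edgeR's exact test and no filter, and 0 with DESeq2, limma-voom, a minimum of 10 reads (2 junctions tested), the replicate block and a prior count of 2, and it was 0 to 1 with single libraries left out. For 101402109-101464448 the log2 fold change was 2.02 with DESeq2, 1.51 with limma-voom and 0.98 with a prior count of 2, below the fold required, and none of these passed the threshold. It was 0.45 to 2.31 with single libraries left out. Without PANC-1 replicate 1 the circle has no PANC-1 read and no fold is given, and the minimum of 10 reads leaves it untested. The labels give both lines replicates 1 to 3, and the study's text calls the lines paired without saying what a pair shares. Deviations of same-numbered libraries had correlations of 0.02, 0.01 and 0.01. At so few reads per circRNA, counting error could hide a pairing, so these values cannot decide it. The main fit did not take the numbers as pairs. With the replicate block the log2 fold change of that circle was 1.66, not past the threshold, and 28 circRNAs were called in place of 41. Over the whole table, 14 were called with DESeq2, 33 with limma-voom, 21 with a prior count of 2, 124 of 7746 without a filter and 6 of 148 at 10 reads. The other 10 tested junctions described one by one gave 142 values under alternatives, of which 0 passed both the fold and the p required and 13 had the other sign. With a median of 4 reads per junction, depth limits every statement on a single junction.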
